A study of Sus scrofa with 92 samples.

Results

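The 23 liver libraries taken 20 hours into full resuscitation (FR20) were split by outcome. Of the 92 libraries of the series, 5 at this time came from animals that died and 18 from animals that lived, as the survival label and the letter in each sample title record. The animals were male Yorkshire-Landrace pigs in a model of hemorrhagic shock with polytrauma. Every pig, in both outcome groups, was fasted overnight, splenectomized, given a blunt blow to the chest and a liver crush injury, bled to a low systolic pressure, and then resuscitated with lactated Ringer's fluid, shed blood and ventilator support. Carbohydrate prefed (CPF) animals also received a syrup bolus before induction and fasted (FS) animals did not. The died group held 3 FS and 2 CPF animals and the lived group 15 FS and 3 CPF animals, so a term for feeding was kept in each fit. The labels give neither the time nor the cause of death, and 1 peripheral biopsy stood for each liver. Each animal that died here had given a 20-hour biopsy, and the study kept only animals sampled at every timepoint. Animals that died before 20 hours are therefore not in the died group. Animals are numbered within each feeding and outcome group in the order of their accessions.

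The hepatocyte makes most plasma proteins, and these pass through the endoplasmic reticulum (ER), where chaperones fold them and enzymes add sugars and disulfide bonds. When the folding load exceeds capacity, the unfolded protein response raises chaperones, co-chaperones and ER-associated degradation factors. The liver is also the main site of acute phase protein synthesis, urea formation and gluconeogenesis, and it can make erythropoietin when oxygen is short.

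The died libraries held 10421616 to 13426114 counts (median 12779091) and the lived libraries 7182282 to 16613261 (median 12286030), and 3 counts, taken as the floor of detection, corresponded to 0.181 to 0.418 CPM (counts scaled to a common library size). The log2 library total differed by 0.07 between the outcome groups after the feeding term (exact 2-sided permutation test within feeding groups, p = 0.666). Albumin, the main hepatocyte product, stood at 10798.5 to 220397 CPM (ALB), so each library carried liver RNA. Some libraries stood apart. Correlations were of departures from the mean of the 4 timepoint median profiles, subtracted gene by gene from library and profile, not of whole profiles. On this measure each FR20 library was correlated with the median FR20 profile of the other libraries over 8156 genes. The 5 lowest values, all below 0, belonged to lived animals, FS lived 5, 11, 12 and 13 and CPF lived 2. They lay at −0.13, −0.59, −0.48, −0.60 and −0.24. Libraries FS lived 11, 12 and 13 correlated best with the FR2 profile (0.57, 0.56 and 0.70), CPF lived 2 with the Baseline profile (0.67) and FS lived 5 with the FR8 profile (0.34). The remaining 13 lived libraries spanned 0.53 to 0.73. The died libraries spanned 0.19 to 0.69. Among them FS died 1 and FS died 2 were closest to FR20, at 0.62 and 0.69, while FS died 3, CPF died 1 and CPF died 2 were closer to FR8, at 0.54, 0.24 and 0.47 against 0.19, 0.23 and 0.41 with FR20. FS lived 11, 12 and 13 also have the 3 Baseline libraries with under 1000 CPM of albumin. Of 65 libraries at the other times 9 lay below 0 with the profile of their own time, and they came from FS lived 2, 6, 11, 12 and 13. In FS lived 11 and 13 the FR2 library was closest to FR8 (0.59 and 0.67) and the FR8 library to Baseline (0.81 and 0.83). Whether time labels were exchanged in these animals was not tested. The labels were kept as given, and results are stated with all 23 libraries and with the 18 that remain without these 5. Since all 5 came from lived animals, the comparison without them is against 13.

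**Figure D1:**
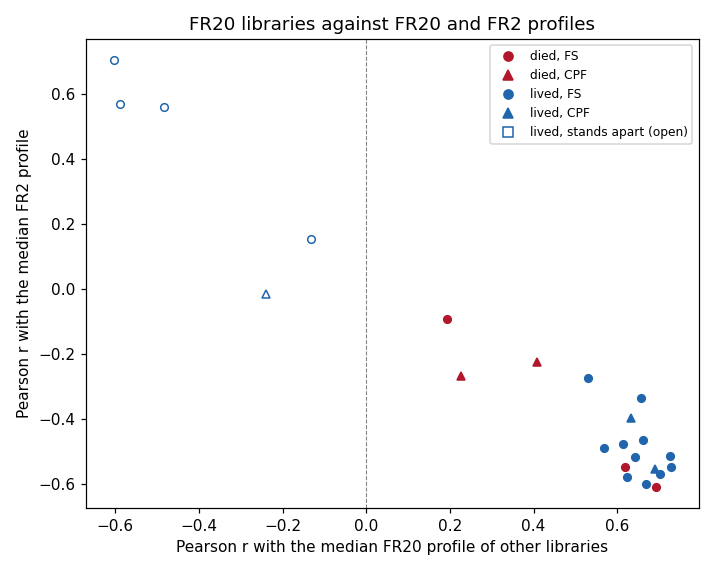
Pearson correlation of each of the 23 FR20 libraries with the median FR20 profile of the other libraries (horizontal axis) and with the median FR2 profile (vertical axis), circles FS and triangles CPF, red died and blue lived. Libraries and profiles are taken as departures from the mean of the 4 timepoint median profiles. The 5 open blue symbols, left of the dashed line at 0, are the lived libraries that stand apart, and 3 red symbols lie between them and the main cluster.

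No gene separated the outcome groups at the threshold used, an adjusted p under 0.05 with a change of at least 2-fold. Of 12307 genes tested, edgeR's quasi-likelihood test called 0 (0%), and the smallest adjusted p was 0.457. At an unadjusted p under 0.05 there were 642 genes, 5.22% of those tested, of which 323 (2.62% of all) were higher and 319 (2.59%) lower in died animals. DESeq2 called 0 (808 at an unadjusted p under 0.05) and limma-voom with quality weights 0 (682). The likelihood ratio test called 1 (0.00813%), FGF23, higher in died animals. Without the 5 libraries the quasi-likelihood test again called 0 of 12078 (0%, smallest adjusted p 0.102), with 1133 genes (9.38%) at an unadjusted p under 0.05, 700 higher (5.80%) and 433 lower (3.59%). Single animals moved this count too: with 1 library left out of the 23 it was 362 without FS died 3 and 1002 without FS died 2, and the number called stayed at 0. In the 18 libraries left without the 5, DESeq2 called 21 (0.174%, 17 higher and 4 lower) and the likelihood ratio test 35 (0.290%, 32 higher and 3 lower). The pair of lists shared 19 genes, 90.5% of the first and 54.3% of the second. Among the 24 genes described individually below, 7 were in both lists: FGF23, FAM167B, CXCL14, S100G and FCN2, higher in died animals, and LIN7B and DBNDD1, lower. The median standard error of a log2 fold change was 0.27, and 354 genes had a log2 fold change of 1 or more in size, 88 higher and 266 lower. The median log2 fold change over all genes was −0.03, and −2.36e-04 without the 5 libraries. In the principal components of the FR20 libraries, the first held 28.7% of variance, the second 13.1% and the third 8.53%. They differed by −7.30, −8.64 and 21.5 between died and lived animals (exact 2-sided permutation tests, p = 0.763, 0.621 and 0.100). Everything below is therefore a description of genes that did not pass, unless a call is stated. The genes were chosen by unadjusted p or by list and are grouped by role, not ordered by p.

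Of the 12 genes with the smallest p among those higher in died animals, several encode proteins of the ER. DNAJC3 (ENSSSCG00000026082), a co-chaperone of the ER lumen, stood at 178, 125 and 234 CPM in FS died 1, 2 and 3 and at 138 and 194 CPM in CPF died 1 and 2. In lived animals it ran from 80.8 to 137 CPM with a median of 114. Thus 4 of the 5 died libraries lay above every lived library, the fifth being within their range. The log2 fold change was 0.62 ± 0.14 (SE), with an adjusted p of 0.457 by edgeR's quasi-likelihood test and 0.221 without the 5 libraries.

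DNAJB11 (ENSSSCG00000011798), a co-chaperone of the ER chaperone BiP, had 240, 138 and 456 CPM in FS died 1 to 3 and 215 and 381 CPM in CPF died 1 and 2, against 45.6 to 220 CPM (median 136) in lived animals. Here 3 died libraries exceeded the lived range. Its log2 fold change was 0.98 ± 0.25 (adjusted p = 0.595). OSTC, a subunit of the oligosaccharyltransferase that attaches N-glycans, had a log2 fold change of 0.60 ± 0.17, and MLEC, malectin, an ER lectin that binds newly attached glycans, of 0.75 ± 0.21. OSTC exceeded every lived library in 3 died libraries and MLEC in 2. The gene with the smallest p of all, GFPT1 (ENSSSCG00000008339), encodes the rate-limiting enzyme of the hexosamine pathway, which supplies the sugar donors for glycosylation. It measured 49.9, 51.9 and 111 CPM in FS died 1 to 3 and 64.6 and 61.6 CPM in CPF died 1 and 2, and 30.4 to 60.5 CPM (median 41.9) in lived animals. All 5 died libraries were above the lived median and 3 above the lived maximum, with a log2 fold change of 0.71 ± 0.15 (adjusted p = 0.457).

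The wider list of unfolded protein response genes was then read as a group. Of 17 members tested, 13 were higher in died animals, against 45.9% of all genes. An unadjusted p under 0.05 was had by 9, all 9 on the higher side, against 2.62% of all genes. The median log2 fold change of the list was 0.62, and that of all genes −0.03. Without the 5 libraries, 10 of 17 had an unadjusted p under 0.05 on the higher side, against 5.80% of all genes, and the median was 0.53. The quasi-likelihood test called 0 of 17. The count was lower without the died libraries closer to the FR8 profile, and the part of the smaller died group in this was not tested. Without FS died 3, CPF died 1 and CPF died 2, a choice made after the data were seen that leaves 2 died animals, both FS, 7 of 17 members were higher, 1 (DNAJC3, 0.44 ± 0.20) had an unadjusted p under 0.05 on the higher side, against 1.48% of all genes, and the median was −0.0506. Earlier results of these data on a list of this name were known when the list was written, so the count is a description only. The 9 genes, singled out after their values were seen, were DNAJC3, PDIA6, CALR, SDF2L1, PDIA4, HSP90B1, HYOU1, CRELD2 and MANF, with log2 fold changes from 0.55 to 1.07.

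Among the chaperones that bind glycoproteins, CALR (calreticulin) had 2236, 1490 and 3167 CPM in FS died 1 to 3 and 1595 and 3476 CPM in CPF died 1 and 2, and 592 to 2046 CPM (median 1420) in lived animals. HSP90B1, the ER member of the HSP90 family, had 2052, 1694 and 4110 CPM in the FS and 1932 and 5155 CPM in the CPF animals that died, against 669 to 3036 CPM (median 1587) in those that lived. In both genes FS died 3 and CPF died 2 were the highest of all 23 libraries, and FS died 2 and CPF died 1 lay within the lived range. Their log2 fold changes were 0.67 ± 0.23 and 0.72 ± 0.27.

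The disulfide isomerases PDIA4 and PDIA6 were higher by 0.66 ± 0.24 and 0.55 ± 0.18 on the log2 scale. HYOU1, a large chaperone that assists BiP, measured 240, 236 and 921 CPM in FS died 1 to 3 and 209 and 803 CPM in CPF died 1 and 2, with 97.0 to 457 CPM (median 264) in lived animals. The 3 other died libraries thus lay below the lived median, FS died 3 and CPF died 2 lay above every lived library, and the log2 fold change was 0.82 ± 0.34. CRELD2, an ER stress-inducible secreted protein and the highest of the list, measured 159, 85.5 and 467 CPM in the FS and 132 and 646 CPM in the CPF animals that died, against 21.8 to 352 CPM (median 109), with a log2 fold change of 1.07 ± 0.45. SDF2L1 (0.96 ± 0.34) and MANF (0.76 ± 0.34), both ER-resident partners of BiP, were also highest in FS died 3 and CPF died 2 among the died libraries. Across the 9 genes, FS died 3 and CPF died 2 exceeded every lived library in 9 each, FS died 1 in 3, CPF died 1 in 2 and FS died 2 in 0. FS died 3 and CPF died 2 correlated with the FR8 profile at 0.54 and 0.47 and with the FR20 profile at 0.19 and 0.41. In lived animals DNAJB11 had a median of 280 CPM at FR8 and 122 CPM at FR20, on the scale of all 91 libraries, whereas FS died 3 had 130 and 405 CPM and CPF died 2 had 180 and 343 CPM at these times. The other 3 died animals were higher at FR8 than at FR20, and the part of the order of times in the ER values was not tested.

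HSPA5, which encodes BiP itself, the master ER chaperone, had 1472, 1491 and 4173 CPM in FS died 1 to 3 and 2059 and 4752 CPM in CPF died 1 and 2, against 533 to 3462 CPM (median 1641) in lived animals. FS died 1 and FS died 2 lay below the lived median, and the log2 fold change was 0.59 ± 0.35 (adjusted p = 0.907). With all 23 libraries the transcription factors of the list lay on the other side of 0. XBP1 was lower by 0.29, ATF4 by 0.10 and ATF3 by 0.52 on the log2 scale, and TRIB3, a target of ATF4 and the lowest of the list, by 0.54. XBP1 stood at 0.0911 on the higher side without the 5 libraries. The ATF4 value also leaned on them. FS lived 5, 11, 12 and 13 had 9.28, 9.29, 9.67 and 9.61 log2 CPM of ATF4, and CPF lived 2 had 8.22. The died libraries ran from 8.32 to 8.74.

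**Figure D2:**
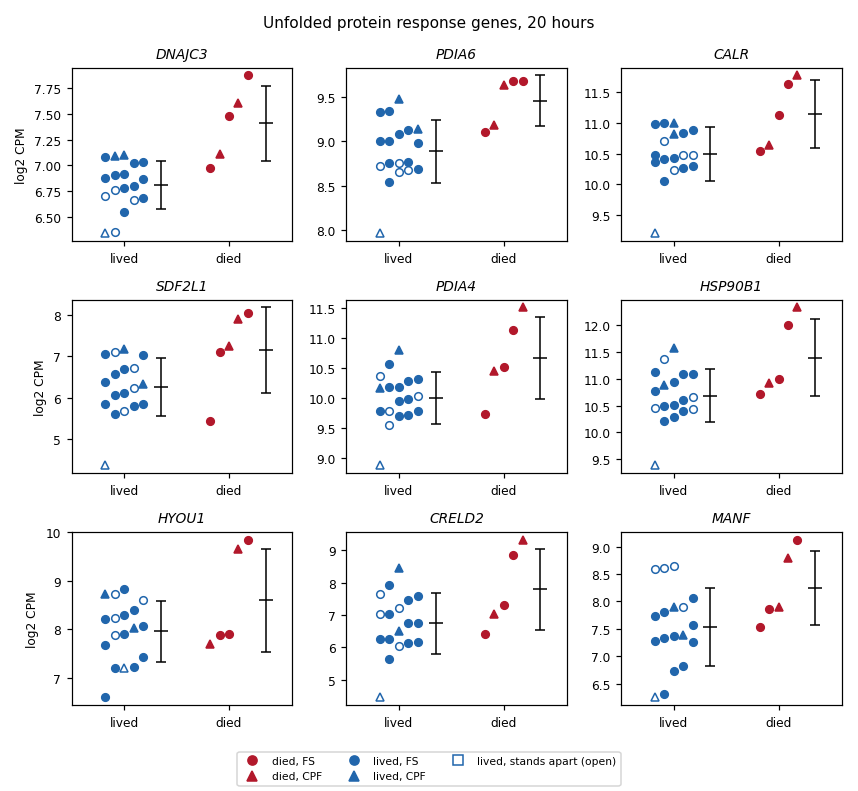
log2 CPM of the 9 unfolded protein response genes with an unadjusted p under 0.05, with 1 symbol per FR20 library (18 lived, 5 died), circles FS and triangles CPF, open symbols the 5 lived libraries that stand apart, and black bars the mean ± SD of each outcome group. In each panel FS died 3 and CPF died 2 lie above all lived libraries, while FS died 2 lies within their range.

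Secreted factors and a calcium-binding protein, at low level in most livers, were described next. FGF23 (ENSSSCG00000029028), the hormone that lowers renal phosphate reabsorption and is made chiefly by bone, measured 19.9, 17.5 and 127 CPM in FS died 1 to 3 and 16.6 and 110 CPM in CPF died 1 and 2. Lived animals ran from 0 to 29.4 CPM with a median of 5.83. All died libraries were above the lived median, and FS died 3 and CPF died 2 were above every lived library. The log2 fold change was 3.07 ± 0.70 (95% interval 1.62 to 4.52, adjusted p = 0.457) and 2.94 without the 5 libraries (adjusted p = 0.186). CXCL14 (ENSSSCG00000014310), a chemokine of epithelial tissues, had 30.2, 25.5 and 128 CPM in the FS and 22.5 and 177 CPM in the CPF animals that died, against 5.19 to 88.7 CPM (median 17.5). The same pair of libraries exceeded the lived range, and the log2 fold change was 1.96 ± 0.49 (adjusted p = 0.595, and 0.102 without the 5 libraries).

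EPO (ENSSSCG00000007673), erythropoietin, the hypoxia-induced hormone that drives red cell formation, was the highest of the glycolysis and hypoxia list. It stood at 0.862, 0.843 and 24.6 CPM in FS died 1 to 3 and 15.3 and 7.58 CPM in CPF died 1 and 2, and at 0 to 8.70 CPM (median 0.603) in lived animals. FS died 3 and CPF died 1 exceeded every lived library, CPF died 2 fell just inside the lived maximum, and the other 2 lay near the lived median. Its log2 fold change was 3.04 ± 0.94 (adjusted p = 0.815), and −1.19 without the 3 died libraries closer to FR8. S100G (ENSSSCG00000012147), a small calcium-binding protein of transporting epithelia, had 0.172, 0 and 10.3 CPM in FS died 1 to 3 and 17.0 and 1.79 CPM in CPF died 1 and 2, against 0 to 2.45 CPM (median 0.0883). Thus 2 died libraries lay above the lived range and 2 at or below the floor of 3 counts. The log2 fold change was 3.88 ± 1.05 (adjusted p = 0.697), and 5.29 without the 5 libraries (adjusted p = 0.102).

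These genes were then followed in the earlier biopsies of the same animals. FGF23 had a median of 0.829 CPM at Baseline in died and 0.347 CPM in lived animals, 24.4 against 8.93 CPM at FR2, 11.9 against 4.57 CPM at FR8 and 17.9 against 5.19 CPM at FR20, with overlapping ranges at each of the 4 times. FS died 3 went from 2.99 CPM of FGF23 at FR8 to 113 CPM at FR20, and CPF died 2 from 11.9 to 99.2 CPM. EPO reached its highest value in CPF died 1 at FR8 (24.8 CPM), FS died 2 had 14.3 CPM at FR8 and 0.756 CPM at FR20, and FS died 3 had 2.05 CPM at FR8 and 21.8 CPM at FR20. The animals that died therefore did not share a time of highest EPO. S100G was already at 6.23, 2.81 and 2.90 CPM at Baseline in FS died 1, CPF died 1 and FS died 3, above the 1.07 CPM maximum of the 15 lived Baseline libraries considered, while FS died 2 and CPF died 2 were within the lived range. The Baseline values leave out 3 lived libraries with under 1000 CPM of albumin. CPM in this paragraph were scaled over all 91 libraries and differ slightly from those scaled over FR20 alone.

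**Figure D3:**
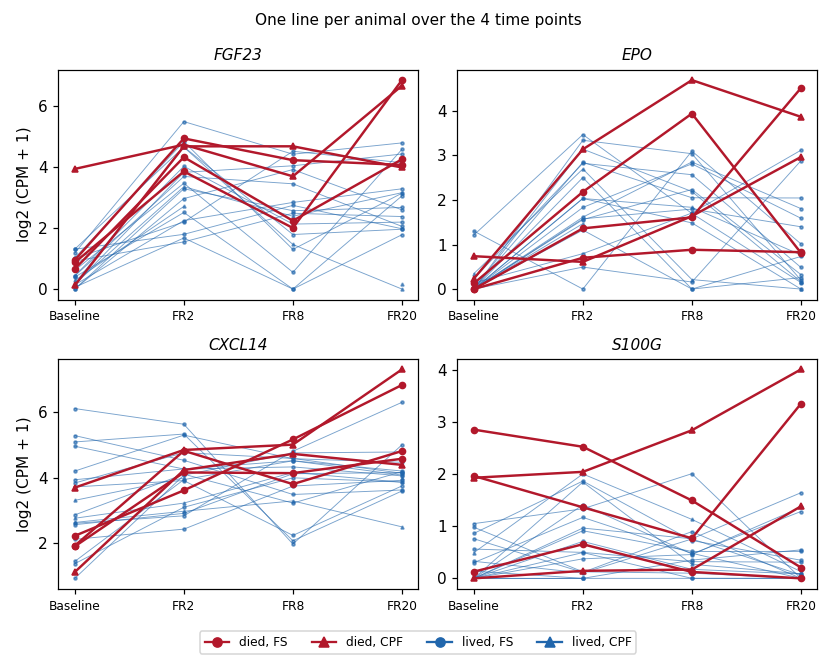
log2 (CPM + 1) of FGF23, EPO, CXCL14 and S100G at Baseline, FR2, FR8 and FR20, a line per animal, red for the 5 that died and blue for the 18 that lived, circles FS and triangles CPF. At FR20 the red lines are split, with FS died 3 and CPF died 2 uppermost for FGF23 and CXCL14, FS died 3 and CPF died 1 uppermost for EPO and S100G, and the others among the blue lines.

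The remaining genes of the 12 on the higher side had varied roles. FCN2 (ficolin-2, a liver lectin that starts the complement lectin pathway) measured 157, 157 and 200 CPM in FS died 1 to 3 and 170 and 128 CPM in CPF died 1 and 2, and 38.7 to 149 CPM (median 99.5) in lived animals. It was above every lived library in 4 of 5, with a log2 fold change of 0.90 ± 0.26 (adjusted p = 0.815). FAM167B was higher by 1.05 ± 0.26, WDR89 by 0.79 ± 0.18 and PAAF1, a regulator of proteasome assembly, by 0.51 ± 0.15 on the log2 scale. In total 11 of these 12 genes were above the lived median in all 5 died libraries, S100G being the exception. These genes were picked by their p, so the count is a description.

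On the lower side, the 12 genes of smallest p were mostly at low level. LIN7B (ENSSSCG00000003157), a scaffold protein of cell polarity, had 1.38, 1.23 and 0.541 CPM in FS died 1 to 3 and 1.16 and 1.00 CPM in CPF died 1 and 2, against 1.13 to 4.66 CPM (median 2.47). Only 2 died libraries lay below the lived range, and the log2 fold change was −1.29 ± 0.31 (adjusted p = 0.495). PRRC2B, an RNA-binding protein at moderate level, measured 52.9, 66.4 and 54.1 CPM in the FS and 38.5 and 52.0 CPM in the CPF animals that died, and 55.5 to 87.7 CPM (median 73.5) in those that lived. It was below every lived library in 4 of 5, but by a log2 fold change of only −0.42 ± 0.13 (adjusted p = 0.815). ZKSCAN8, a zinc finger protein, was also below the lived range in 4 of 5, at −1.30 ± 0.38 with no more than 15 counts in any died library.

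STING1, the adaptor of cytosolic DNA sensing, measured 2.85, 3.91 and 2.93 CPM in FS died 1 to 3 and 3.59 and 4.72 CPM in CPF died 1 and 2, against 2.63 to 9.82 CPM (median 6.26) in lived animals. PLD4, an endolysosomal nuclease of plasmacytoid dendritic cells and macrophages, had 2.33, 3.53 and 2.01 CPM and 2.11 and 3.07 CPM in the same order, against 1.23 to 8.76 CPM (median 5.57). All 5 died libraries were below the lived median in both genes and none was below the lived range. Their log2 fold changes were −0.80 ± 0.25 and −1.10 ± 0.33. ATG2A, a lipid transfer protein of autophagosome formation, was lower by 0.89 ± 0.24 and INPP5K, a phosphoinositide phosphatase, by 0.67 ± 0.18 on the log2 scale. ATG2A stood at −0.56 without the 5 libraries, in which it ran from 55.0 to 99.1 CPM. MOCOS (ENSSSCG00000003744), which activates molybdenum enzymes, was lower by 1.34 ± 0.40, and by 0.88 without those libraries.

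CCDC170 (−1.63 ± 0.43), DYNC2I2 (−1.11 ± 0.31) and NME7 (−1.71 ± 0.50), of which the latter 2 encode proteins of cilia, and DBNDD1 (−2.65 ± 0.73) complete the 12. DBNDD1 had at most 4 counts in a died and 22 in a lived library, so its fold rests on counts near the floor. Of the 12, 11 were below the lived median in all 5 died libraries, ZKSCAN8 being the exception.

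**Figure D4:**
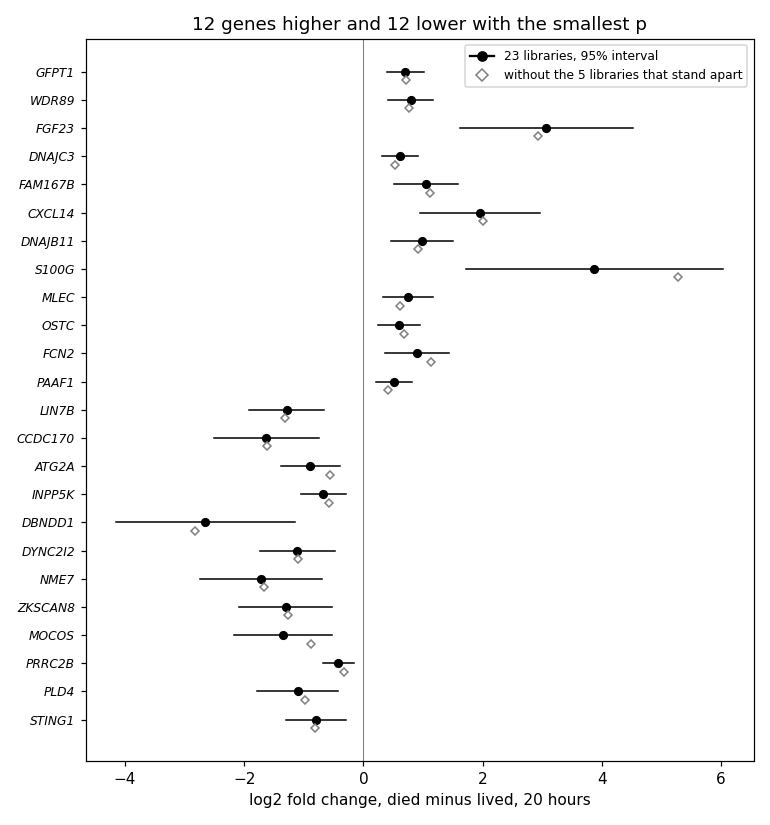
log2 fold change (died minus lived, feeding term in the model) of the 12 genes higher and the 12 lower with the smallest p, filled circles with 95% intervals from all 23 libraries and open diamonds from the 18 left without the 5 that stand apart. All 24 kept their side of 0, S100G moved the most (3.88 to 5.29), and none passed the quasi-likelihood test after adjustment.

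Plasma protein genes of the hepatocyte were read next, by list, each beside the median of −0.03 for all genes and, without the 5 libraries, of about 0. Of all 12307 genes tested, 54.1% were lower and 45.9% higher in died animals, and 50.0% each without the 5. Without the 3 died libraries closer to FR8, 5554 of 12143 genes were higher. The counts of members higher or lower in each list stand beside these shares, and many are near them. Positive acute phase proteins, which rise in plasma after injury, had 11 of 16 members higher in died animals, a median of 0.41 and 2 members with an unadjusted p under 0.05, both higher, against 2.62% of all genes. These were FGB (ENSSSCG00000023883), 1 of the 2 identifiers of the fibrinogen beta chain, at 1.05 ± 0.40, and FGG, the gamma chain, at 0.57 ± 0.28. The other FGB identifier did not reach an unadjusted p under 0.05. FGG measured 33592, 29723 and 54382 CPM in FS died 1 to 3 and 39223 and 21131 CPM in CPF died 1 and 2, against 14180 to 54099 CPM (median 23876), so that 1 died library lay just above the lived range. Without the 5 libraries 7 of 16 members had an unadjusted p under 0.05 on the higher side, against 5.80% of all genes, and the median was 0.57. Without the 3 died libraries closer to FR8, 1 of 16 did and the median was 0.13. The lowest member was C3, at −0.29. Negative acute phase proteins had a median of −0.18 (7 of 10 lower) from APOA2 at 0.52 to SERPINA6, the cortisol carrier, at −1.20, and of 0.30 without the 5 libraries. That median was 0.18, with 6 of 10 higher, when the 3 died libraries closer to FR8 were left out. SERPINA6 measured 106, 70.2 and 10.3 CPM in the FS and 22.3 and 39.2 CPM in the CPF animals that died, with 3 of them below the lived minimum of 40.4 CPM (lived median 87.5 CPM).

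The hepatocyte markers had a median of −0.31 (11 of 15 lower) from FGB at 1.05 to ARG1 (ENSSSCG00000023773) as the lowest, and of 0.28 without the 5 libraries. Albumin, the most abundant, was lower by 0.71 with all libraries and stood at 0.33 on the higher side without those 5, among which were the 4 highest albumin values of the 23 libraries. Albumin ran from 48892 to 220397 CPM in these 5 and from 10798.5 to 51537 CPM in the other 13 lived libraries. Coagulation and fibrinolysis genes had a median of −0.15 (12 of 16 lower), from the urokinase gene PLAU at 0.80 to its receptor PLAUR at −0.78, and of 0.08 without the 5. Complement genes had a median of −0.15 (13 of 18 lower), from MBL2 at 0.22 to C8B at −0.42, and of −0.03 without the 5. Neither list had a member with an unadjusted p under 0.05 in the full set. The complement list did not hold FCN2 (0.90), described above with the complement lectin pathway. The coagulation list did not hold the fibrinogen genes FGB (ENSSSCG00000023883, 1.05) and FGG. Each of these genes had an unadjusted p under 0.05 on the higher side, so the absence applies to the listed members only.

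Metabolic lists had medians below 0 with all libraries, most of them nearer 0 without the 5. Urea cycle and amino acid catabolism genes were lower in 15 of 17 (median −0.49), from HAL, histidine ammonia-lyase, at 0.51 to ASS1, argininosuccinate synthase, at −1.07. ASS1 measured 962, 898 and 628 CPM in FS died 1 to 3 and 1258 and 1104 CPM in CPF died 1 and 2, all below the lived median of 1606 CPM and within the lived range of 617 to 4477 CPM. The median of the list was 0.07 without the 5 libraries. Gluconeogenesis and glycogen genes were lower in 9 of 11 (median −0.43, and −0.03 without the 5), from GBE1 at 0.11 to GYS2, liver glycogen synthase, at −1.02. GYS2 stood below the lived range of 130 to 845 CPM in 3 died libraries (62.0, 120 and 69.5 CPM in FS died 3, CPF died 1 and CPF died 2). Cholesterol synthesis and uptake genes were lower in 14 of 16 (median −0.45, and −0.21 without the 5), with MVK the highest at 0.12. None of the cholesterol genes had an unadjusted p under 0.05. The urea cycle, gluconeogenesis and cholesterol medians were −0.42, −0.11 and 0.20 without the 3 died libraries closer to FR8.

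Fatty acid oxidation and ketogenesis genes had a median of −0.10 (12 of 16 lower) from ACADVL at 0.87 to FGF21 at −0.80, and of −0.17 without the 5. Bile acid and drug metabolism genes had a median of −0.12 (9 of 13 lower) from CYP7A1, the rate-limiting enzyme of bile acid synthesis, at 0.74 to CYP1A2 at −2.96, and of −0.04 without the 5. The lived maximum of CYP1A2 was 1287 CPM against a lived median of 23.4 CPM and a died range of 5.07 to 48.6 CPM. Insulin and IGF signaling genes had a median of −0.21 (8 of 11 lower) from IGF1 at 0.48 to IGFALS at −1.23, and of 0.16 without the 5. In contrast, respiratory chain subunits were higher in 13 of 14 with a small median of 0.16 (0.22 without the 5), from NDUFS1 at 0.33 to SDHB at −0.13, and 1 member, NDUFS1, had an unadjusted p under 0.05. Proteasome subunits were higher in 9 of 11 (median 0.13, and 0.16 without the 5), from PSMD14 at 0.35 to PSMD12 at −0.15. Heme, iron and antioxidant genes were higher in 7 of 8 (median 0.30, and 0.18 without the 5), from NQO1 at 0.67 to HPX at −0.23. Without the 3 died libraries closer to FR8 the proteasome median was −0.17 (2 of 11 higher) and the respiratory chain median 0.02 (9 of 14). The fatty acid oxidation, bile acid, insulin and heme medians were then 0.29, 0.56, 0.13 and 0.62.

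Glycolysis genes and hypoxia targets as a whole had a median of 0.03 (11 of 19 higher, and 0.16 without the 5) from EPO to PFKFB4 at −0.75, so the list as a whole lay near the median of all genes. EGLN3, a HIF prolyl hydroxylase and a HIF target, was the other member with an unadjusted p under 0.05, at 1.15 ± 0.39. It had 33.8, 27.4 and 90.7 CPM in the FS and 45.2 and 42.7 CPM in the CPF animals that died, against 5.26 to 57.9 CPM (median 24.2), with 1 library above the lived range. VEGFA, another HIF target, differed by −0.02.

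Lists of other stress responses and of growth were read beside the ER list. Heat shock proteins had a median of −0.26 (9 of 11 lower) from HSPE1 at 0.21 to BAG3 at −1.13, and of 0.13 without the 5. Apoptosis and p53 targets had a median of −0.32 (15 of 17 lower), with GADD45B the lowest at −1.13, and of 0.01 without the 5. Immediate early genes had a median of −0.01 (8 of 16 higher) from FOS at 1.21 to KLF6 at −0.81, and of 0.65 without the 5. Glucocorticoid targets had a median of −0.19 (6 of 10 lower) from ANGPTL4 at 0.63 to SGK1 at −0.80, and of 0.67 without the 5. Circadian clock genes had a median of −0.15 (10 of 15 lower) from BHLHE40 at 0.52 to PER2 (ENSSSCG00000023854) at −1.38, and of 0.06 without the 5. Cell cycle genes had a median of 0.12 (7 of 13 higher) from E2F1 at 0.98 to AURKB at −0.61, and of 0.29 without the 5. In the 18 libraries the immediate early gene JUNB (log2 fold change 1.23) and GADD45B (1.74) were called by both DESeq2 and the likelihood ratio test, and FOS (2.02), EGR1 (1.11) and the glucocorticoid target FKBP5 (1.10) by the latter alone, as were EPO, MARCO and STEAP4 of other lists, while the quasi-likelihood test called 0. GADD45B thus lay on opposite sides of 0 in the full set and without the 5. Among these 6 lists the glucocorticoid and immediate early medians differed most between the full set and the 18 libraries.

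Immune lists differed in the RNA they carried, with lived median sums from 30.5 CPM for neutrophil to 611 CPM for macrophage and Kupffer markers. T and NK cell markers were lower in 13 of 13, with a median of −0.45 (−0.34 without the 5), from GZMK at −0.04 to PRF1, perforin, at −1.23, and NKG7, the most abundant, at −0.28. Their summed level was 36.9 to 67.7 CPM in died and 41.0 to 108 CPM in lived animals, with overlap. Only PRF1 of the 13 had an unadjusted p under 0.05, on the lower side, against 2.59% of all genes. It measured 0.309 to 1.06 CPM in died and 0.536 to 4.33 CPM in lived animals. Of the T and NK markers, 5 of 13 were higher without the 3 died libraries closer to FR8, with a median of −0.15. In bulk tissue fewer cells of a type and less RNA per cell cannot be told apart. Interferon response genes were lower in 12 of 14 (median −0.29, and −0.36 without the 5), from MX2 at 0.12 to RSAD2 at −1.17. Without the 3 died libraries closer to FR8, 8 of 14 were higher and the median was 0.05.

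Inflammation and NF-kappaB genes had a median of −0.20 (13 of 20 lower, and 0.01 without the 5) from PTGS2 at 0.79 to CXCL10 at −1.11. The 4 members with an unadjusted p under 0.05, against 2.59% of all genes, were all lower: CXCL10 and CCL5, chemokines that draw T cells, NFKBIA, the inhibitor of NF-kappaB, and NFKB2. CCL5 measured 16.4, 17.8 and 22.9 CPM in FS died 1 to 3 and 19.4 and 15.1 CPM in CPF died 1 and 2, all below the lived median of 35.5 CPM and within the range of 11.4 to 56.7 CPM. Without the 5 libraries 0 of 19 members were lower at an unadjusted p under 0.05.

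Neutrophil markers had a median of −0.13 (6 of 9 lower) from LTF at 1.04 to MMP9 at −1.42, and of −0.23 without the 5. Macrophage and Kupffer markers had a median of −0.09 (6 of 9 lower, and −0.25 without the 5) from MARCO to SPP1 at −1.50, with C1QA, the most abundant, at 0.02. MARCO, a scavenger receptor of Kupffer cells, and MRC1, the mannose receptor of Kupffer and sinusoidal endothelial cells, had an unadjusted p under 0.05 on the higher side, against 2.62% of all genes, and without the 5 libraries CSF1R (−0.43) had one on the lower side. MRC1 measured 97.3, 186 and 87.2 CPM in FS died 1 to 3 and 84.1 and 152 CPM in CPF died 1 and 2, against 43.8 to 107 CPM (median 81.0), a log2 fold change of 0.64 ± 0.19. MARCO measured 8.45, 8.97 and 57.5 CPM in the FS and 118 and 7.79 CPM in the CPF animals that died, against 2.89 to 35.7 CPM (median 11.2), a log2 fold change of 1.38 ± 0.58. MARCO was thus high in FS died 3 and CPF died 1 and below the lived median in the other 3, and stood at −0.59 without the 3 died libraries closer to FR8. B and plasma cell markers had a median of −0.17 (4 of 6 lower) from POU2AF1 at 0.13 to MZB1 at −0.60, with XBP1 the most abundant, and of 0.06 without the 5.

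Markers of other cells that a biopsy could hold were read last. Endothelial and adhesion genes had a median of 0.08 (8 of 13 higher, and 0.06 without the 5) from LYVE1 at 0.70 to VCAM1 at −0.23, with ENG, the most abundant, at −0.02. Extracellular matrix and stellate cell genes had a median of −0.06 (9 of 16 lower, and −0.15 without the 5) from LOX at 0.71 to LUM at −0.81, with FN1, the most abundant, at −0.28. Cholangiocyte markers were lower in 5 of 5 (median −0.66, and −0.47 without the 5) from ANXA4 at −0.13 to SPP1, the most abundant, which is also in the macrophage list. Their sum was 70.4 to 334 CPM in died and 85.3 to 795 CPM in lived animals. Adipocyte markers had a median of 0.24 (2 of 3 higher, and −0.09 without the 5) from CIDEC, the most abundant, at 0.29 to LIPE at −0.08. Erythroid markers were lower in 4 of 4 (median −0.61) from SLC4A1 at −0.38 to HBB, the most abundant, at −0.73, and had a median of 0.54 over the 3 tested without the 5. The 5 striated muscle markers tested summed to 0.0767 to 0.357 CPM in died and 0.228 to 70.9 CPM in lived animals. MYL2 had 0 counts in every died library and at most 132 in a lived one, NEB at most 1 and 83, and ACTA1, the most abundant, averaged 0.130 CPM in died and 5.12 CPM in lived animals. These are at or near the floor in the died group, and no fold is given. The part of any of these markers in the differences above was not tested beyond the fit with the muscle list as a term.

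**Figure D5:**
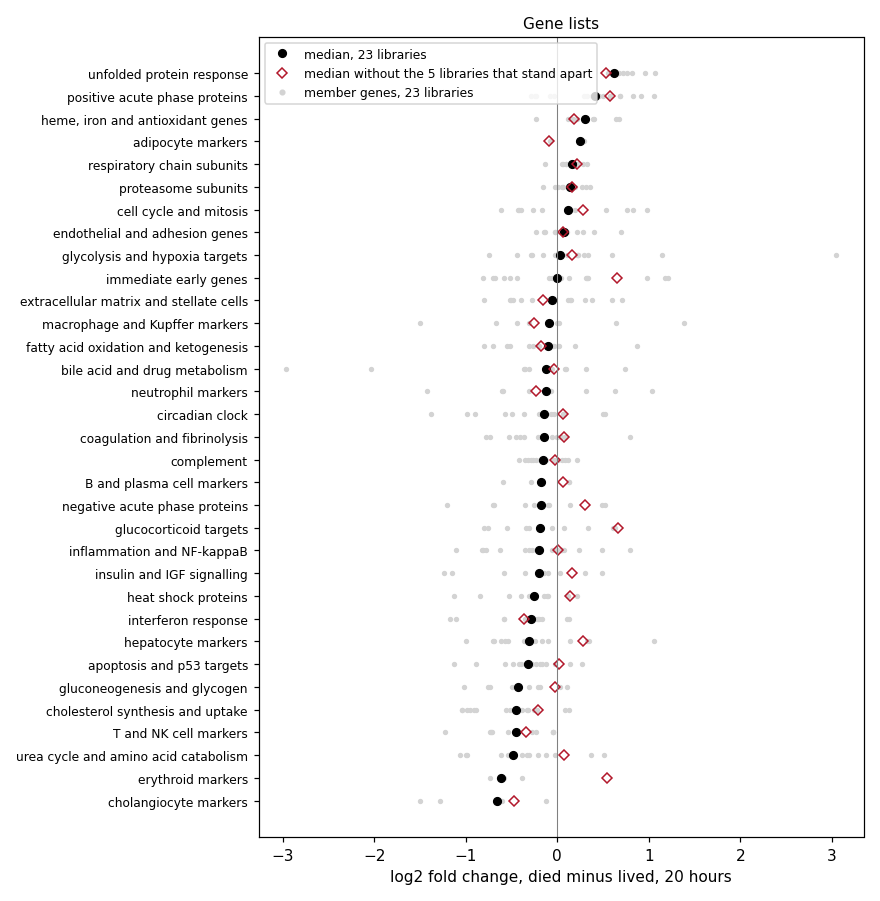
log2 fold change (died minus lived at FR20) of the tested members of 33 lists (grey dots), with the list median from all 23 libraries (black circles) and from the 18 left without the 5 that stand apart (red diamonds); the striated muscle list is left out because its members are near 0 counts in died animals. The unfolded protein response list has the highest median with all libraries (0.62), while without the 5 it (0.53) lies below the glucocorticoid, immediate early, positive acute phase and erythroid lists, and the hepatocyte, negative acute phase, urea cycle, heat shock and erythroid medians are among those that lie on the other side of 0 without them.

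Whether the outcome difference depended on feeding was asked with an interaction term. The quasi-likelihood test called 0 of 12307 genes (0%), with 962 at an unadjusted p under 0.05, the likelihood ratio test 0 and DESeq2 1. With 2 CPF animals that died and 3 that lived, this test had few samples behind it. The genes of smallest p with a more positive difference in CPF animals were HNRNPA1, an abundant RNA-binding protein (1.42 ± 0.29), and TRIP6, a focal adhesion protein (1.90 ± 0.41, both adjusted p = 0.616). HNRNPA1 stood at 433 to 615 CPM in the CPF animals that died and 226 to 279 CPM in those that lived, but at 202 to 320 and 249 to 386 CPM in the FS groups. SCLY, selenocysteine lyase (−1.76 ± 0.45), and MOXD1 (−3.35 ± 0.88) led on the negative side. SCLY stood at 13.1 to 17.0 CPM in CPF animals that died and 29.0 to 41.3 CPM in those that lived, with overlapping FS groups. Among the 24 genes above, CXCL14 differed by 1.37 in FS and 3.04 in CPF animals fitted alone, S100G by 2.91 and 6.43, and GFPT1 by 0.75 and 0.63, all on the log2 scale and all in the same direction.

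The change from Baseline to FR20 was compared between outcome groups with a term for each animal. The quasi-likelihood test called 0 of 13923 genes (0%), with 735 at an unadjusted p under 0.05, and the likelihood ratio test 0. CXCL14 had the smallest p on the positive side. Its change was larger in died animals by 3.24 ± 0.80 on the log2 scale (adjusted p = 0.669), from a Baseline median of 2.75 CPM in died and 5.73 CPM in lived animals to 27.1 and 15.7 CPM at FR20. NSUN3, a mitochondrial RNA methyltransferase, followed (0.94 ± 0.24). On the negative side stood DAAM1, a formin of planar cell polarity (−1.86 ± 0.46), and CNOT6L, a deadenylase (−0.98 ± 0.25). For DAAM1 the gap lay at Baseline, with medians of 17.2 CPM in died and 5.63 CPM in lived animals, against 6.28 and 7.03 CPM at FR20.

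At the earlier times the same comparison of died with lived animals called 1 gene of 12362 (0.00809%) at Baseline, ENSSSCG00000024699, which has no symbol here, 0 of 11892 (0%) at FR2 and 0 of 11951 (0%) at FR8, with 614, 656 and 265 genes at an unadjusted p under 0.05. The Baseline call was lost without the 3 libraries low in albumin, where 0 genes were called and 998 had an unadjusted p under 0.05. Of the ER genes, DNAJB11 differed by −0.60 at Baseline, −0.61 at FR2 and −0.09 at FR8 against 0.98 at FR20, DNAJC3 by 0.13 (−0.0249 without the low-albumin libraries), −0.12 and −0.18 against 0.62, and GFPT1 by 0.24, −0.16 and −0.07 against 0.71. FGF23 differed by 2.21, 0.83 and 0.84 before its 3.07 at FR20, and FAM167B by 0.44, 0.69 and 1.10 before its 1.05, both on the higher side at each time. LIN7B differed by −0.37, 0.01 and −0.36 and INPP5K by −0.60, −0.37 and −0.09. None of these single differences passed after adjustment. The earlier times include libraries that stand apart: FS lived 6, whose Baseline library was closest to FR8 (0.65), had 610 CPM of DNAJB11 at Baseline and 58.4 CPM at FR8, against lived medians of 66.9 and 280 CPM.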

How the data were processed

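Per the labels and the study's methods, the authors made single-read libraries from polyA RNA, aligned them to Sscrofa10.2 with TopHat (version 1.5.0 in the submitters' processing notes) and counted reads per gene with HTSeq. The deposited table holds raw counts for 25322 pig Ensembl identifiers in 92 libraries, with no normalization. Reads shared by near-identical genes or by overlapping genes may be split or lost in such counts, and strand was not stated. A symbol came from a gene name table or the study's own tables, and some symbols belong to 2 identifiers. No genome of this build was used, so no positions or sequences are given.

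The 23 FR20 libraries were fitted with edgeR 4.0.16 (R 4.3.3): a gene entered when its CPM summed to 10 or more over the libraries, TMM scaling was applied, and the quasi-likelihood F test (2-sided) was run with terms for feeding and outcome. Calls needed both an adjusted p (Benjamini-Hochberg, over all genes tested) below 0.05 and a log2 fold change of 1 or more in size. The SE is the log2 fold change over the square root of F, and intervals are at 95%. CPM are TMM-scaled. DESeq2 1.42.0, edgeR's likelihood ratio test and limma-voom (limma 3.58.1) were alternatives, with RLE scaling, other filters, feeding groups alone and each library left out. The change from Baseline was fitted on 91 libraries with a term per animal, leaving out the FR8 library with counts on 812 identifiers that failed in sequencing. Floors of 3 counts cover counting error only. Library-level values were compared with exact 2-sided permutation tests over all 8160 splits of the animals within feeding groups.

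In simulated counts on 12212 genes for this comparison, the quasi-likelihood test found 56 of 107 genes changed 2-fold and 81 of 93 changed 4-fold, with 7 false calls. These counts used an adjusted p under 0.05 alone, without the fold threshold that calls in the real data also needed. The rates under both thresholds were not measured. Changed genes were drawn only from those above a floor of mean CPM. Each gene was drawn separately, with no libraries made to stand apart. The rates therefore do not cover genes at low level or libraries that differ jointly. Named genes were the 12 on each side with the smallest p and a symbol, the 2 on each side for the interaction and the change from Baseline, and the highest and lowest member of each of 34 hand-written lists (404 identifiers tested), with the most abundant of cell type lists. A few list members that the rule would name are not reported here. The lists and members were chosen with earlier results of these data known. Leaving out the 5 libraries that stand apart, or the 3 died libraries closer to FR8, was chosen after the data were seen. No batch is given in the labels or methods. Tables and figures used Python with pandas and matplotlib.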

Additional observations from a re-analysis of the deposited data

Results flagged for a closer look

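Among the 24 named genes and the library total, ZKSCAN8 was marked because 1 of the 5 died libraries lay far from the others. Its log2 CPM in CPF died 1 was separated from the nearest died library by 0.851 of the range of the group, above the critical value of 0.71 for 5 samples. CPF died 1 had 1.58 CPM, within the lived range of 0.658 to 2.05 CPM, and the other died libraries 0.357 to 0.460 CPM. Of 25 such checks 1 was past this value, and chance alone marks about 1 in 20.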

How the results depend on the processing

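The count of 0 genes called at FR20 held under RLE scaling, the other filter, DESeq2, limma-voom, no feeding term, the muscle term, each feeding group alone, the 3 died libraries closer to FR8 left out, and each animal left out. It became 1 with no filter on low counts (PDILT) and 1 with the likelihood ratio test (FGF23). The genes at an unadjusted p under 0.05 ranged from 362 to 1002 when each animal was left out. Without the 5 libraries that stand apart, a choice made after the data were seen, they numbered 1133 by the quasi-likelihood test, 1257 by DESeq2 and 1020 by the likelihood ratio test, and DESeq2 called 21 and the likelihood ratio test 35. DESeq2 called 1 gene for the interaction. The change from Baseline kept a count of 0 under its 5 alternatives, among them the fit with no replicate block (no term for each animal), where 732 genes had an unadjusted p under 0.05. For the comparison at FR20 itself each animal gave 1 library, so no pairing applies. Low counts limit genes such as DBNDD1, S100G and the muscle markers. The 24 genes chosen by p kept their direction wherever a value was had, CCDC170, DBNDD1, NME7 and ZKSCAN8 having none in CPF animals alone. The cause of the reversals below was not tested.

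Single list members with log2 fold changes that turned direction are listed by setting. Without the 5 libraries, the quasi-likelihood test, DESeq2 and the likelihood ratio test gave ARG1 (ENSSSCG00000023773) at 0.59, 0.60 and 0.60, C8B at 0.0012, 0.0017 and 9.27e-04, BAG3 at 0.71, 0.71 and 0.71, MX2 at −0.0741, −0.0630 and −0.0672, GADD45B at 1.73, 1.74 and 1.74, CIDEC at −0.0862, −0.0905 and −0.0864, HBB at 0.74, 0.74 and 0.74, SGK1 at 0.63, 0.62 and 0.63, HPX at 0.0529, 0.0520 and 0.0529, PSMD12 at 0.15, 0.15 and 0.15, ALB at 0.33, 0.33 and 0.33, and XBP1 at 0.0911, 0.0895 and 0.0911. With limma-voom and quality weights ARG1 stood at 0.12, MVK at −0.12, BAG3 at 0.32, GADD45B at 0.91, SLC4A1 at 0.14, HBB at 0.58, SGK1 at 0.15, PSMD12 at 0.0553, ALB at 0.13 and XBP1 at 0.0081. In CPF animals alone ARG1 stood at 0.17, PLAUR at 0.68, GBE1 at −0.74, MVK at −0.62, CYP7A1 at −0.38, VCAM1 at 0.79, MX2 at −0.0904, ANXA4 at 0.94, IGF1 at −0.10, PSMD12 at 0.31, ENG at 0.44, C1QA at −0.28 and XBP1 at 0.14. In FS animals alone C3 stood at 0.23, C8B at 0.0155, LTF at −0.18, GZMK at 0.43, PSMD14 at −0.13 and FN1 at 0.0303. Without the 3 died libraries closer to FR8, also chosen after the data were seen, C3 stood at 0.45, PLAU at −1.17, C8B at 0.40, EPO at −1.19, HAL at −1.02, FGF21 at 0.27, CRELD2 at −0.0171, HSPE1 at −0.0045, FOS at −1.52, PTGS2 at −0.55, LTF at −1.44, MARCO at −0.59, GZMK at 0.36, LOX at −0.43, LIPE at 0.19, ANGPTL4 at −0.38, BHLHE40 at −0.0813, HPX at 0.12, IGF1 at −0.64, PSMD14 at −0.47, ALB at 0.15 and FN1 at 0.20, and, the muscle list aside, the list medians furthest from their values with all libraries were −1.24 for immediate early genes and −1.08 for neutrophil markers. With no feeding term MBL2 stood at −0.10 and LIPE at 0.0328. With the muscle list as a term GBE1 stood at −0.0297, MVK at −0.0555, GZMK at 0.11, MX2 at −0.24, ENG at 3.58e-04 and ACTA1 at 0.49.

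With each animal left out in turn, values ran from −0.73 to 0.49 for MBL2, −0.18 to 0.26 for GBE1, −0.38 to 0.76 for HAL, −1.55 to 0.0083 for FGF21, −0.31 to 0.36 for MVK, −0.25 to 1.04 for CYP7A1, −0.78 to 0.11 for TRIB3, −0.51 to 0.0181 for VCAM1, −0.50 to 0.22 for GZMK, −0.18 to 0.45 for MX2, −0.31 to 0.11 for ANXA4, −0.30 to 0.0507 for LIPE, −1.19 to 0.28 for HBB, −0.41 to 0.77 for IGF1, −0.22 to 0.13 for ENG and −0.12 to 0.12 for C1QA.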
